A study of Mus musculus with 59 samples.

Results

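Interferon-stimulated genes (ISGs) were followed through the stem and progenitor cells of mouse bone marrow after deletion of Daxx, which deposits the histone variant H3.3, or of Pu.1, the myeloid transcription factor encoded by Spi1. The set was a named list of 42 ISGs, and all 42 were found in each of 10 gene tables of 51810 to 51812 genes. RNA-seq had been done on 59 samples of C57BL/6 bone marrow, each carrying 1 copy of a Cre transgene. The sorted populations were long-term haematopoietic stem cells (LT-HSCs), the multipotent progenitors MPP3 and MPP4, KLS cells (lineage-negative, c-Kit-positive and Sca-1-positive, a mixture that holds all of the former) and granulocyte-monocyte progenitors (GMPs).

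WT denotes Daxx +/+ Cre +/-, Daxx-KO denotes Daxx F/F Cre +/- and DKO denotes Cre +/- mice with Daxx F/F joined to Pu.1 F/F. In KLS cells and GMPs at 3 weeks post induction (w.p.i.) there were 3 WT, 3 Daxx-KO and 2 DKO libraries per cell type. A separate line at 3 w.p.i. held 2 libraries of Pu.1 +/+ Cre +/- and 2 of Pu.1 F/F Cre +/- (Pu.1-KO) per cell type. These animals came from the Mx1Cre line, in which Cre is driven by the promoter of Mx1, itself one of the 42 genes, and is switched on by pI:pC, a synthetic double-stranded RNA that induces interferon. Controls carried the same Cre and, per the study's methods, pI:pC was the inducer of the Mx1Cre line. A further 2 WT and 2 Daxx-KO libraries of KLS cells and of GMPs had neither line nor time on their labels (untimed hereafter), and the methods describe chimaeras, in which floxed or control marrow was grown in irradiated recipients, for the transplanted series. The 7 LT-HSC libraries came from the RosaCreER line 3 days post induction (d.p.i.) with tamoxifen, the 8 MPP libraries from Mx1Cre mice at 3 w.p.i., and 12 KLS and GMP libraries from Mx1Cre mice at 24 w.p.i. Those 27 libraries mix genotypes (Daxx +/+, +/F and F/F for LT-HSCs, +/+ and F/F for MPPs, WT, Daxx-KO and DKO at 24 w.p.i.), and were described without a genotype contrast. The LT-HSC and MPP columns carry no genotype, and at 24 w.p.i. the columns of the same animals in the repeat tables end in C for libraries a and b and in T for c to f, read as control and treatment. Mice were treated as juveniles or young adults, and both sexes were used.

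Type I interferon binds the receptor pair Ifnar1 and Ifnar2 and activates the kinases Jak1 and Tyk2, and the signal passes through Stat2 and Irf9 to the interferon-stimulated response element (ISRE) in the promoters of target genes. The targets include RNA-binding effectors (the Ifit and Oas families), GTPases (the Mx and guanylate-binding families), the ubiquitin-like modifier Isg15 with its enzymes, the immunoproteasome and peptide transport. Acute interferon drives quiescent stem cells into cycle, and stem cells are known to keep part of the ISG programme on without infection.

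A search for the ISRE core, written GAAANNGAAA and read on both strands with overlapping matches allowed, showed how many of the genes carry it near their start. Promoters, here 250 bases before to 50 after an annotated transcription start, were taken from RefSeq (GRCm38.p6), and 34 of the 42 genes matched. The core was held by 15 of these 34 genes (44.1%), compared with 3.99% of 27025 genes with a promoter in the same table. With a following CT (GAAANNGAAACT) the figures were 10 genes (29.4%) and 0.303%. The 4 promoters below are shown because Oas1a and Gbp3 changed in the most comparisons, Ddx60 moved in opposite directions in KLS cells and GMPs, and Isg15 carried the most matches. Capitals mark the ISRE core, with overlapping matches merged, and each is written 5′ to 3′ along the gene.
Oas1a promoter (chr5:120907476-120907775, minus strand, first match at -20 from the start): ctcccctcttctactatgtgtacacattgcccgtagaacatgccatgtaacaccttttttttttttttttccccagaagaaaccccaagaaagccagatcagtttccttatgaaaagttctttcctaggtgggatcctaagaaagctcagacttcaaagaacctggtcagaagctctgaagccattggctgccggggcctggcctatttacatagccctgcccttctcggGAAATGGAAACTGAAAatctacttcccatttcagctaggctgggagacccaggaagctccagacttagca
Gbp3 promoter (chr3:142559794-142560093, plus strand, first match at -45): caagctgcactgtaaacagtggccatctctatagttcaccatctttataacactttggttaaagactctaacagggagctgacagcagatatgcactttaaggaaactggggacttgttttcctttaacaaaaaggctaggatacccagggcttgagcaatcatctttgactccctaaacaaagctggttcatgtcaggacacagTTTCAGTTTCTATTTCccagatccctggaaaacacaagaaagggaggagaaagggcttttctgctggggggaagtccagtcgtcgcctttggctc
Ddx60 promoter (chr8:61927837-61928136, plus strand, first match at -53): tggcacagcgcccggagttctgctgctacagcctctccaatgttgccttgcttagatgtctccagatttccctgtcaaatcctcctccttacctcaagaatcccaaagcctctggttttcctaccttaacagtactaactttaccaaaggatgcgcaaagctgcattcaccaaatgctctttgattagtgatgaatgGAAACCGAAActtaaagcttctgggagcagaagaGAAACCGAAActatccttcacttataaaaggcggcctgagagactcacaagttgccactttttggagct
Isg15 promoter (chr4:156200769-156201068, minus strand, first match at -78): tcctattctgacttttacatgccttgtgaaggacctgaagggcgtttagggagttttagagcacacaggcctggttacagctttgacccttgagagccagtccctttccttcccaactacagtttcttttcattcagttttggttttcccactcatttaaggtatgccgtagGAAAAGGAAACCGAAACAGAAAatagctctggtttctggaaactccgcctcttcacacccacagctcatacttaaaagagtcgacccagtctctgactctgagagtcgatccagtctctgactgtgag
The core lies in the gene's own orientation in Oas1a, Ddx60 and Isg15 and as its reverse complement (TTTCNNTTTC) in Gbp3. The remaining holders were Bst2, Eif2ak2, Gbp2, Gbp7, Ifit1, Ifit3, Ifitm3, Oas3, Rsad2, Stat2 and Trim30a. Of the 15 genes with the core, 9 were called in at least 1 of the 11 comparisons described here, as were 10 of the 19 genes without it. Of 11651 genes tested in all 11, 59.5% were called at least once.

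Each library held 3045852 to 30136629 reads on genes. In the samples with a genotype, Daxx marked the deletion: at 3 w.p.i. KLS cells held 423 to 505 normalised reads in WT, 72.2 to 102 in Daxx-KO and 78.1 and 93.9 in DKO, and untimed KLS cells held 119 and 138 in WT against 33.9 and 29.7 in Daxx-KO. Spi1 went against its label in the KLS libraries labelled DKO, with 3330.4 and 2993 normalised reads against 1669 to 2320.0 in WT. It overlapped in DKO GMPs (3846 and 2989 against 3348 to 4604) and in Pu.1-KO KLS cells (2920.5 and 1307 against 2764 and 2080.1), and it was lower in Pu.1-KO GMPs (2589 and 2707 against 3395 and 3934). The files do not show which exons the Spi1 reads cover, so the floxed part was not checked. The libraries labelled DKO or Pu.1-KO are therefore named by their labels only. Among KLS libraries at 3 w.p.i., the WT library without a number stood apart, with 3239 reads on 6 GMP markers per 1000000 reads on genes, against 355 and 971 in the other 2.

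The median levels of the ISGs differed between the sorted populations, from highest in LT-HSCs to lowest in GMPs. To set tables side by side, the reads of a library were scaled to 1000000 reads on genes (RPM). These values are not divided by transcript length, so they order libraries for a gene and not genes against each other, and since the tables were normalised separately, the order is a description. A library's ISG score was the mean of log2(RPM + 1) over the 42 genes. The score ran from 5.0 to 6.62 in 7 LT-HSC libraries (median 5.52), from 4.85 to 5.76 in 4 MPP3 libraries (median 5.32), from 4.90 to 5.51 in 4 MPP4 libraries (median 5.14), from 4.20 to 5.34 in 22 KLS libraries (median 4.92) and from 3.64 to 4.25 in 22 GMP libraries (median 3.90). The ranges of LT-HSCs, MPP3, MPP4 and KLS cells overlapped, and so did those of KLS cells and GMPs by a narrow margin. The summed ISG reads had medians of 2955, 2779, 2395, 2139 and 1372 RPM in the same order. The median level was highest in LT-HSCs for 30 of 42 genes, in MPP3 for 8, in MPP4 for 3 and in KLS cells for 1, and it was lowest in GMPs for 36. The LT-HSC lead in the score rested on libraries c, d and e. The other LT-HSC libraries scored 5.0 to 5.52, within the MPP3 range. Libraries c, d and e also held the least Daxx, 69.5 to 102 normalised reads against 196 to 384 in the others. LT-HSCs, MPPs and KLS cells differ in line, time, inducer and mix of genotypes, which cannot be told apart from the cell type between them, whereas the KLS and GMP libraries come from the same groups.

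**Figure D1:**
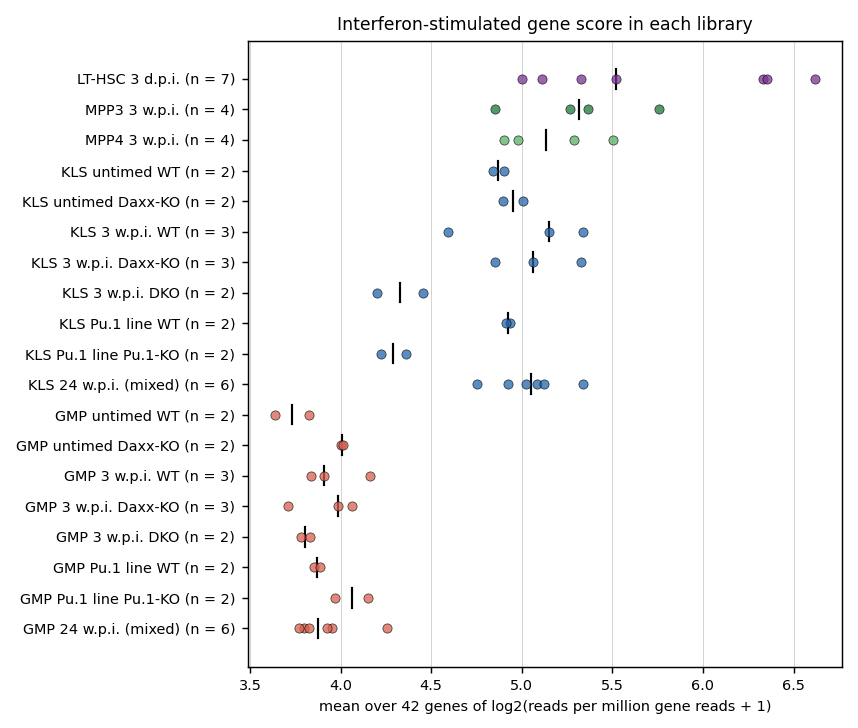
ISG score (mean log2 of RPM + 1 over 42 genes, horizontal axis) of each library, in rows by population and group, with a vertical tick at each group median. GMP libraries lie between 3.64 and 4.25, and LT-HSC libraries reach 6.62.

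Among the transcription factors, Irf7, which amplifies the interferon response, ranged from 27.0 to 262 RPM in LT-HSCs (median 49.96), from 7.78 to 41.6 in KLS cells (median 17.1) and from 0.621 to 10.7 in GMPs (median 5.33). The Irf7 medians of MPP3 (35.2) and MPP4 (38.5) lay between those of LT-HSCs and KLS cells. The LT-HSC libraries other than c, d and e held 27.0 to 49.96 RPM, a range that took in both MPP medians. Irf9, the DNA-binding partner of Stat2, had medians of 70.4 in LT-HSCs, 47.5 in KLS cells and 27.2 in GMPs. Stat2 was flatter, with medians of 53.2, 33.8 and 30.2.

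The RNA-binding effectors had their lowest medians in GMPs. Ifit1, which sequesters RNA lacking cap methylation, had a median of 38.4 RPM in LT-HSCs (14.2 to 142), 8.47 in KLS cells (2.76 to 21.6) and 1.71 in GMPs (0 to 4.83). Ifit3, its partner, had medians of 20.9, 3.00 and 0.748. Oas2, which makes the second messenger that activates RNase L, had medians of 55.9, 14.9 and 2.86, and its GMP range of 0.308 to 48.4 was the widest of Ifit1, Ifit3, Oas2 and Rsad2. Rsad2 (viperin), an antiviral enzyme, had medians of 82.1, 15.2 and 2.74.

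The modifier Isg15 had few reads throughout, at 0.660 to 23.7 RPM in LT-HSCs (median 11.5), 0.254 to 8.14 in KLS cells (median 2.77) and 0 to 2.17 in GMPs (median 0.828). Ifitm3, a membrane protein that blocks viral fusion, had medians of 111, 63.8 and 34.9, and Bst2 (tetherin), which holds budding virus at the membrane, had medians of 21.6, 13.2 and 9.11. Psmb8, a catalytic subunit of the immunoproteasome, did not follow the order. It had its highest median in MPP4 (42, range 22.3 to 58.1), and its medians in LT-HSCs (11.9), KLS cells (10.1) and GMPs (12.8) lay close together with overlapping ranges. Psmb9, its partner subunit, and Tap1, a chain of the peptide transporter, had their highest medians in MPP3 (59.1 and 224) and medians of 40.3 and 143 in LT-HSCs, 37.2 and 131 in KLS cells and 33.7 and 102 in GMPs.

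**Figure D2:**
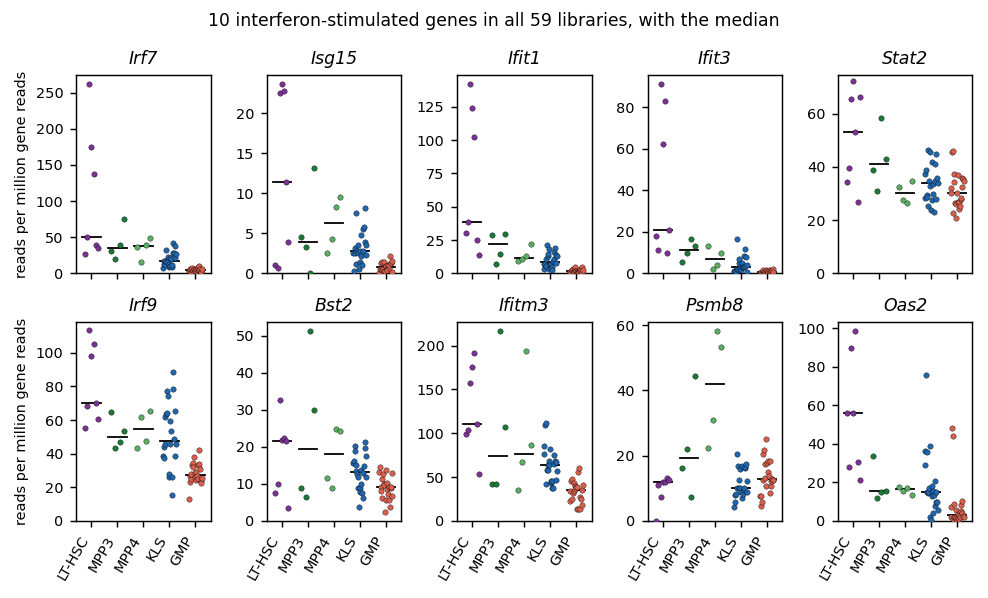
Level of 10 ISGs in all 59 libraries by sorted population, in RPM on linear axes that start at 0, with bars at the medians. Ifit1 falls from a median of 38.4 in LT-HSCs to 1.71 in GMPs, while Psmb8 is highest in MPP4.

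KLS cells and GMPs had been taken from the same 18 animals at 3 and 24 w.p.i. and in the Pu.1 line, by the animal numbers in the column names. The KLS score exceeded the GMP score in 18 of 18 animals, by 0.21 to 1.27 log2 units. The difference was smallest in the Pu.1-KO animals (0.25 and 0.21) and the DKO animals (0.42 and 0.62), and it was 0.76 to 1.27 in the other 14. The KLS libraries of these groups also held more neutrophil marker reads. They summed to 5426 and 8176 RPM in Pu.1-KO against 1482 and 2154 in its controls (0 of 7 called). In DKO they summed to 10118 and 11200 against 39.9 to 2133 in WT (3 of 7 called higher). The part of these markers in the difference was not tested. Of 40 ISGs that passed the filter in all 6 tables, 11 were higher in KLS cells in every animal, where 10.5% of 13098 genes were, and 0 were lower in every animal, where 4.95% were. Irf7, Ifit1, Oasl1, Oasl2, Usp18, Herc6, Parp9, Gbp2, Rtp4, Ddx60 and Xaf1 were the 11. Gbp3 was higher in GMPs in 16 of 18 animals, Cmpk2 in 14 and Psmb8 in 13.

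Tests of genotype were made with limma on log2(normalised read count + 1) within each table, over genes with a mean of at least 10, and a gene was called at an adjusted p under 0.05. Fold changes are on that scale, which understates the change of low genes. In untimed KLS cells, Daxx-KO and WT differed in 10 of 41 ISGs tested, with 5 higher and 5 lower, where 10.6% of 13508 genes were called higher and 12.5% lower. The median log2 change was 0.16 over the ISGs and 0.03 over all genes. Only Ifit3 fell under the filter.

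Gbp3, a guanylate-binding GTPase, held 169 and 226 normalised reads in untimed WT KLS cells and 535 and 561 in Daxx-KO (log2 change 1.49 ± 0.17 SE, adjusted p = 0.00043). Lgals3bp, a secreted glycoprotein, held 774 and 748 against 1315 and 1122 (0.67 ± 0.12, adjusted p = 0.0040). The groups did not overlap for either gene. Dtx3l, a ubiquitin ligase that partners Parp9, rose by 0.63, Trim25, the ligase that activates the RNA sensor RIG-I, by 0.52 and Ifitm3 by 0.49.

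Ifit2 held 303 and 298 normalised reads in WT and 148 and 129 in Daxx-KO (log2 change -1.12 ± 0.17, adjusted p = 0.0020). Samd9l, a translational repressor, held 557 and 630 against 387 and 267 (-0.88 ± 0.19, adjusted p = 0.0099). All Daxx-KO values lay below all WT values for both. Trim30a fell by 0.56, Ddx60, a helicase of the RNA-sensing pathway, by 0.45, and Gbp7 by 0.44.

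Most central genes of the response were not called in these KLS cells. Irf7 held 51.6 and 117 normalised reads in WT and 91.9 and 80.3 in Daxx-KO, Isg15 17.2 and 1.72 against 17.5 and 22.1, and Ifit1 20.6 and 48.2 against 51.4 and 36.1. Stat2 held 188 and 253 against 270 and 203, Irf9 258 and 253 against 306 and 313, and Oas2 193 and 246 against 527 and 247. None of these passed the test, nor did Bst2 (103 and 110 against 141 and 130) or Psmb8 (29.2 and 39.6 against 55.8 and 57.6).

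Of 30 pathway genes outside the list that were tested in untimed KLS cells, 5 were higher and 4 lower. Ly6a, which encodes Sca-1, the antigen of the KLS gate, and is itself interferon-inducible, rose by 1.94 on the log2 scale. The interferon receptor chain Ifnar2 (0.48), the kinase Ikbke (0.98), Stat3 (0.42) and the phosphatase Ptpn6 (0.67) were also higher. The RNA-sensing receptors Tlr3 (-3.77) and Tlr7 (-3.61), the RNA sensor Ifih1 (-0.80) and the repressor Irf2 (-0.48) were lower. Markers of other cells moved with genotype here: stem and progenitor markers summed to 1225 and 1264 RPM in Daxx-KO against 4941 to 5101 in WT (6 of 7 called lower, Ly6a higher), and GMP markers to 1673 to 2209 against 112 to 204 (5 of 6 higher), with none at 0 in either group. Monocyte markers summed to 117 to 122 against 33.7 to 36.3 (3 of 7 higher), B cell markers to 21.3 to 24.3 against 123 to 259 (3 of 6 lower, 1 higher) and plasma cell markers to 90.6 to 111 against 260 to 593 (3 of 5 lower, 1 higher). Their part in the ISG result was not tested. In sorted bulk samples, fewer cells of a type and less RNA per cell cannot be told apart. Leaving out either Daxx-KO library left 0 ISGs called, and leaving out WT 2 left 4.

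In untimed GMPs more ISGs changed, and most rose. Of 35 tested, 15 were higher and 4 lower in Daxx-KO, where 16.6% of 12744 genes were called higher and 16.5% lower, and the median log2 change was 0.47 over the ISGs and -0.01 over all genes. Ifit1, Ifit3, Isg15, Usp18, Ifi27l2a, Rtp4 and Ifi44 fell under the filter, so the low effectors were not tested.

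The Oas family led, with 4 of 5 genes called higher. Oas2 held 14.3 and 45.2 normalised reads in WT GMPs and 333 and 312 in Daxx-KO (log2 change 3.60 ± 0.44, adjusted p = 0.00032), and Oas3 held 11.7 and 29.8 against 116 and 99.5 (2.45 ± 0.44, adjusted p = 0.0026). Oasl2 held 27.3 and 42.5 against 93.3 and 86.5 (1.37 ± 0.32, adjusted p = 0.010). Oas1a rose as well and Oasl1 was not called, at 23.4 and 25.3 against 18.2 and 17.1. The members of this family are similar in sequence, and how reads shared between copies were counted is not known.

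Ddx60 held 154 and 155 normalised reads in WT GMPs and 714 and 645 in Daxx-KO (2.13 ± 0.13, adjusted p = 1.2e-05). Sp100, a scaffold of the nuclear bodies in which Daxx itself resides, held 1091 and 994 against 1930 and 2430 (1.06 ± 0.12, adjusted p = 0.00023). Each Daxx-KO value was above each WT value. Ifitm3 (0.85) and Stat2 (0.68) rose, as did Irf1, Parp9, Parp14, Dtx3l, Samd9l, Lgals3bp and Trim30a.

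Among the 4 lower calls, Gbp3 fell by 0.70 and Ifit2 by 0.53. The others, the dynamin-like antiviral GTPases Mx1 and Mx2, passed the filter through the WT group alone, where they were high, so their calls are no support for a direction. Mx1 held 18.2 and 30.7 normalised reads in WT and 4.06 and 4.49 in Daxx-KO, the latter from 2 and 11 reads. Mx2 held 22.1 and 23.5 against 4.06 and 5.71, the latter from 2 and 14 reads. The log2 change of Mx1 was -2.23 with the pseudocount of 1 and -1.64 with 5. Without WT 1 there were 9 calls, none of them lower, and without WT 2 there were 13, again none lower. Irf7 (26 and 30.7 against 46.6 and 31.0), Irf9 (84.6 and 149 against 185 and 176), Bst2 (84.6 and 93.1 against 62.9 and 56.3) and Psmb8 (48.1 and 48.8 against 32.4 and 41.6) were not called.

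**Figure D3:**
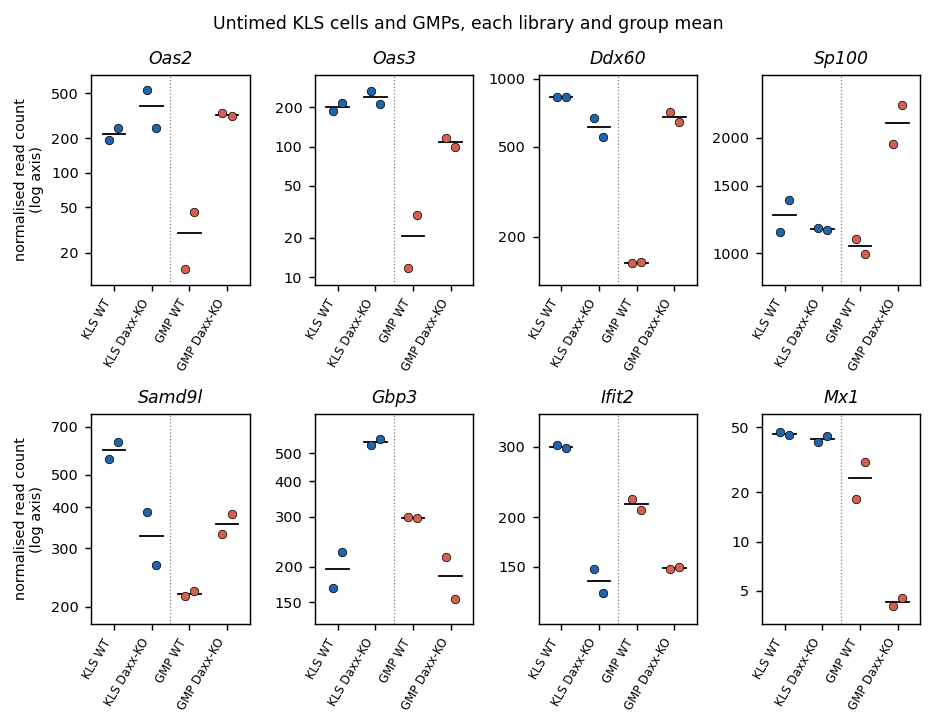
Normalised read counts (log axis) of the ISGs named in the untimed comparison, one point per library and a bar at each group mean, with KLS cells left and GMPs right of the dotted line (tables normalised separately). Ddx60 and Samd9l fall in Daxx-KO KLS cells and rise in Daxx-KO GMPs.

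Of 27 pathway genes tested in untimed GMPs, 13 were higher and 6 lower. Those higher included the RNA sensors Ddx58 (1.68), Dhx58 (1.53) and Ifih1 (0.91), the kinase Ikbke (1.54) and Stat3 (1.08), and with them Ifnar2, Irf2, Tbk1, Adar, Jak1, Ifngr1 and Ptpn6. Irf8, a determinant of monocyte fate, fell by 2.71, and Tlr9 (-1.64), Irf5 (-1.60), the DNA sensor Mb21d1 (-1.34), Ifngr2 (-1.07) and Tmem173 (-0.90), the adaptor through which Mb21d1 signals, were lower. Neutrophil markers summed to 5100 to 7150 RPM in Daxx-KO against 724 to 1000 in WT (4 of 7 higher, 1 lower), and monocyte markers to 192 and 196 against 306 and 349 (3 of the 7 higher and 2 lower, with C1qa at 0 in WT). Stem and progenitor markers summed to 679 and 789 against 829 and 832 (4 of 7 lower, 1 higher). Their part in the ISG changes was not tested.

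At 3 w.p.i. the loss of Daxx alone gave no call among the ISGs. In KLS cells 0 of 42 were called higher or lower in Daxx-KO against WT, where 0.184% of 15200 genes were called higher and 0.0724% lower by limma, and 3 of the 42 had an unadjusted p under 0.05. Irf7 held 218, 448 and 212 normalised reads in the 3 Daxx-KO libraries against 212, 297 and 129 in WT, Isg15 held 14.7, 104 and 35.6 against 46.5, 33.5 and 19.0, and Ifit1 held 144, 297 and 172 against 197, 245 and 68.0. The ranges overlapped for all 3. The Daxx-KO library 2 was the highest of its group for each of them. Stat2 (371, 639 and 324 against 461, 599 and 364), Ifit3 (24.9, 227 and 29.3 against 65.9, 89.2 and 21.0) and Psmb8 (130, 284 and 214 against 166, 132 and 116) showed the same library on top. This library stood apart by B cell markers, at 2271 RPM against 119 and 321 in the other Daxx-KO libraries and 33.4 to 56.8 in WT, and by plasma cell markers at 1120 against 283 and 675 and 60.9 to 825. Markers of plasmacytoid dendritic cells summed to 26.05 to 32.9 RPM in Daxx-KO and 4.52 to 8.11 in WT (1 of 5 called higher, with Klk1 and Cox6a2 at 0 in both groups). Their part was not tested.

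KLS libraries labelled DKO were lower than both other groups in the Oas and guanylate-binding families, with 4 of 5 Oas genes and 2 of 3 guanylate-binding genes called lower in each comparison. Against WT, 11 of 42 ISGs were lower and 1 higher, where 8.4% of 15200 genes were called lower and 9.24% higher. The median log2 change was -0.64 over the ISGs and close to 0 over all genes. Against Daxx-KO, 10 were lower and 2 higher, where 7.22% were called lower and 8.17% higher, and the medians were -0.66 and -0.01. Both comparisons use the same 2 DKO libraries.

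Oas2 held 224, 514 and 173 normalised reads in WT, 190, 199 and 191 in Daxx-KO and 32.6 and 7.71 in DKO (DKO against WT -3.99 ± 0.58, adjusted p = 0.0022, and against Daxx-KO -3.51 ± 0.58, adjusted p = 0.0035). Oas1a held 233, 413 and 200, then 175, 273 and 255, then 48.9 and 75.2 (-2.13 ± 0.37, adjusted p = 0.0048, and -1.91 ± 0.37, adjusted p = 0.0075). Gbp3 held 923, 854 and 722, then 604, 1332 and 824, then 231 and 201 (-1.94 ± 0.29, adjusted p = 0.0023, and -2.01 ± 0.29, adjusted p = 0.0016). For these 3 genes both DKO values lay below all 6 others.

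Oasl1, a repressor of Irf7 translation, held 131, 163 and 94.0 in WT, 155, 185 and 143 in Daxx-KO and 22 and 67.5 in DKO (-1.68 and -2.02). Rtp4, a membrane receptor chaperone, held 311, 297 and 119, then 219, 199 and 281, then 58.4 and 96.4 (-1.55 and -1.61). Irf9 held 1021, 977 and 611, then 797, 878 and 817, then 398 and 380 (-1.12 ± 0.22, adjusted p = 0.0085, and -1.09 ± 0.22, adjusted p = 0.0092). For all 3 the DKO values lay below those of both other groups, which overlapped each other, and the WT library without a number was the lowest of WT. Gbp2 and Parp14 were lower in both comparisons, Oasl2, Ddx60 and Trim30a against WT only, and Oas3 and Trim25 against Daxx-KO only. The difference between the 2 comparisons is the test of Daxx-KO against WT, in which none of these was called.

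Sp100 went the other way, at 3038, 3219 and 2744 normalised reads in WT, 2447, 2471 and 2559 in Daxx-KO and 6620 and 4529 in DKO (0.87 ± 0.17, adjusted p = 0.0084, and 1.14 ± 0.17, adjusted p = 0.0020). Samd9l held 1396, 1297 and 929, then 841, 961 and 813, then 2142 and 1530, and was higher than in Daxx-KO by 1.06 ± 0.21 (adjusted p = 0.0089). The DKO values were the highest of the 8 libraries for both genes. Irf7 (141 and 180), Isg15 (7.66 and 37.6), Ifit1 (50.8 and 99.3), Stat2 (499 and 324), Ifitm3 (971 and 1120), Bst2 (56.5 and 121) and Psmb8 (153 and 216) were not called in DKO.

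Of 30 pathway genes tested in these cells, 2 were higher and 6 lower in DKO against WT, and 2 were higher and 10 lower against Daxx-KO. Ifngr1, a chain of the type II interferon receptor, was higher (1.82 and 2.12), and Ifnar2 (-1.31 and -1.36), Irf5 (-1.62 and -1.42), Tlr3 (-2.66 and -2.74), Dhx58 (-1.25 and -1.32), Tmem173 (-0.69 and -1.34) and Ptpn6 (-0.72 and -0.95) were lower. Socs3, a feedback inhibitor, was higher against WT (1.87). Ikbke was higher (0.94) and Irf8 (-2.58), Mavs (-1.07), Ifnar1 (-0.67) and Irf2 (-0.59) lower against Daxx-KO. In the DKO libraries, neutrophil markers summed to 10118 and 11200 RPM against 39.9 to 2133 in WT and 74.3 to 461.5 in Daxx-KO (3 and 6 of 7 called higher), and GMP markers to 6934 and 7987 against 355 to 3239 and 287 to 935 (3 and 5 of 6 higher), with none at 0. Stem and progenitor markers summed to 1453 and 1999 against 3807 to 5636 and 2383 to 4486 (4 and 2 of 7 lower). Plasma cell markers summed to 1200 and 1268 against 60.9 to 825 and 283 to 1120 (1 and 0 of 5 higher). T and NK cell markers summed to 175 and 187 against 18.8 to 41.8 and 20.6 to 39.4 (1 of 6 higher in each). That sum also reached 179 and 214 in untimed WT GMPs, where Nkg7 held 1142 and 1365 normalised reads and Cd3e, Cd3g and Trbc2 were at 0. The part of these markers in the ISG result was not tested. Without the unnumbered WT library 20 ISGs were called against WT, without WT 1 or WT 2 there were 5, and without DKO 1 there were 2, or 3 against Daxx-KO.

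In GMPs of the same animals no ISG was called in any of the 3 comparisons. Of 41 tested (Ifi44 fell under the filter), 0 passed for Daxx-KO against WT, where 0.0656% of 13714 genes were called higher and 0.0292% lower. For DKO against WT 0 passed, where 0.211% were higher and 0.0802% lower, and for DKO against Daxx-KO 0 passed, where 0.0583% were higher and 0% lower. With limma, 2, 3 and 6 ISGs had an unadjusted p under 0.05 in that order, and DESeq2 on the recovered reads called 1 ISG, lower, in DKO against WT. Oas1a held 109, 125 and 143 normalised reads in WT GMPs, 75.2, 63.7 and 81.0 in Daxx-KO and 42.6 and 28.6 in DKO, with no overlap between groups. Oas2 (30.1, 65.3 and 19.6, then 14.6, 114 and 23.7, then 17.2 and 3.95) and Irf7 (70.6, 74.1 and 53.3, then 7.81, 89.3 and 26.7, then 67.0 and 50.3) overlapped. Neutrophil markers in these GMPs ranged from 3245 to 23629 RPM, with libraries of WT and Daxx-KO at both ends.

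**Figure D4:**
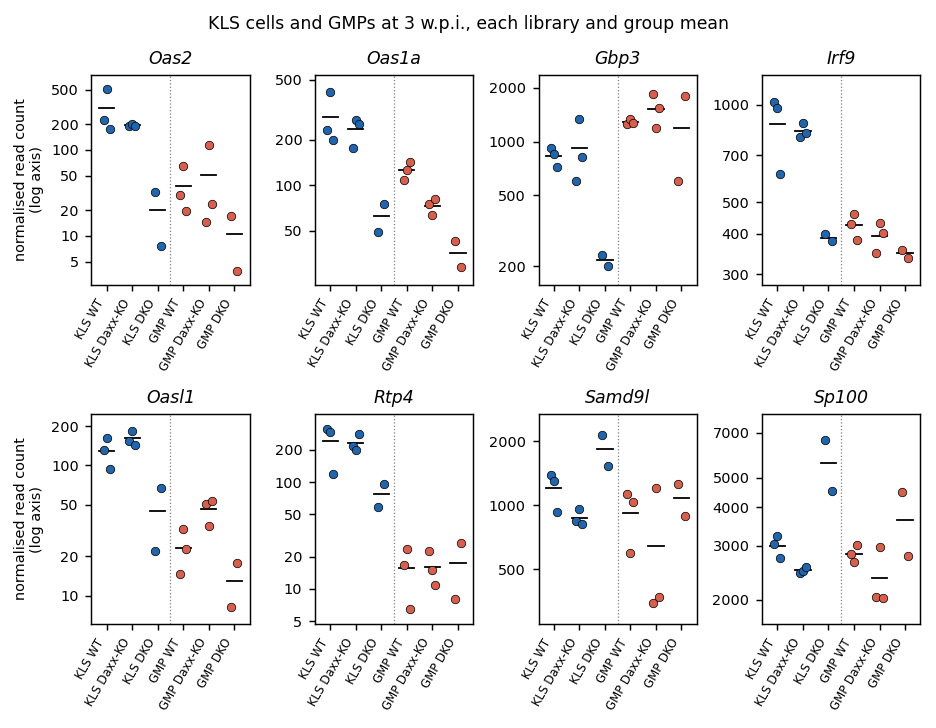
Normalised read counts (log axis) of the ISGs named at 3 w.p.i., one point per library and a bar at each group mean, with KLS cells left and GMPs right of the dotted line (tables normalised separately). In KLS cells the 2 DKO libraries lie below all others for Oas2, Oas1a and Gbp3 and above all others for Sp100.

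In the Pu.1 line, Oas1a was the ISG called in KLS cells. It held 400 and 256 normalised reads in the controls and 52.6 and 60.2 in the libraries labelled Pu.1-KO (-2.49 ± 0.65, adjusted p = 0.034). Of 42 tested, 0 were called higher, where 0.469% of 23459 genes were, and 1 lower, where 0.341% were. All 42 fitted changes were below 0, with a median of -1.16 against 0.12 over all genes. Other genes with a mean of at least 100 were also mostly below 0 (66.6% of 13797, median -0.53, against -1.16 for the 38 ISGs at that level), and so were 26 of 30 pathway genes (median -0.94). Irf9 held 1195 and 860 in the controls and 400 and 170 in Pu.1-KO, Irf7 426 and 326 against 138 and 127, and Stat2 839 and 540 against 454 and 255, and none of these was called. Isg15 (43.4 and 77.6 against 16.4 and 30.7), Bst2 (277 and 159 against 115 and 69.8) and Oas2 (369 and 253 against 62.0 and 148) did not overlap either, whereas Ifit1, Ifit3, Psmb8 and Ifitm3 did. The share of all genes without overlap between 2 and 2 libraries was not counted. The count hung on single libraries: without Pu.1-KO a it was 21, and without either control it was 0. No pathway gene of 30 was called. Stem and progenitor markers summed to 1113 and 1821 RPM against 2752 and 2878 (1 of 7 lower), and neutrophil markers to 5426 and 8176 against 1482 and 2154 (0 of 7 called). B cell markers summed to 484 and 900 against 198 and 252 (0 of 6 called), and erythroid markers to 17.9 and 91.4 against 56.6 and 197 (3 of 6 lower). Their part was not tested.

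In GMPs of the Pu.1 line, 4 of 40 ISGs were higher and 5 lower in Pu.1-KO, where 9.15% of 19337 genes passed upwards and 8.49% downwards, and with Isg15 and Ifi44 under the filter. The medians were -0.08 over the ISGs and -0.002 over all genes, and with a mean of at least 100 they were -0.20 over 27 ISGs and -0.30 over 10626 other genes. Ifitm3 held 183 and 195 normalised reads in the controls and 581 and 775 in Pu.1-KO (1.82 ± 0.28, adjusted p = 7.3e-09). Samd9l held 356 and 363 against 793 and 928 (1.25 ± 0.25, adjusted p = 6.4e-05), and Oas1a held 168 and 178 against 39.3 and 47.9 (-1.97 ± 0.42, adjusted p = 0.00015). For these 3 genes the groups were apart. Oas3 (1.07) and Sp100 (0.70) were also higher, and Oasl1 (-1.24), Trim25 (-0.83), Gbp3 (-0.76) and Gbp7 (-0.73) lower, Gbp7 with overlapping groups.

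Irf7 and the Stat2-Irf9 pair were not called in these GMPs. Irf7 held 88.9 and 84.9 against 77.0 and 110, Stat2 359 and 372 against 252 and 326, and Irf9 322 and 372 against 257 and 426. Of 30 pathway genes, Socs3 (3.27), Tlr7 (1.29) and Irf5 (0.87) were higher and Tmem173 (-0.73) lower. Neutrophil markers summed to 12825 and 16161 RPM in Pu.1-KO against 2096 and 2746 (7 of 7 higher), and GMP markers to 10067 and 14439 against 19606 and 20364 (3 of 6 lower). B cell markers summed to 216 and 465 against 102 in both controls (4 of 6 higher), and erythroid markers to 46.5 and 277 against 21.0 and 67.1 (3 of 6 higher). Their part was not tested. Without Pu.1-KO b the count was 16, and without control a or b it was 2 or 1.

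MPP4, the lymphoid-biased progenitors, and MPP3, the myeloid-biased ones, were compared over all genotypes. Of 42 ISGs tested with limma 0 were higher and 0 lower, where 0% of 20137 genes were called in either direction. No ISG and 107 of all genes had an unadjusted p under 0.05. Irf7 ran from 15.4 to 48.3 RPM in 4 MPP4 libraries and from 20.0 to 74.6 in 4 MPP3 libraries, and Ifitm3 from 34.9 to 194 and from 41.8 to 217. Both ranges overlapped widely. Flt3, the antigen (Flk2) that splits the gates, held 3333, 2533, 3080 and 3277 normalised reads in MPP3 and 4734, 3211, 6469 and 5734 in MPP4. The ranges thus overlapped in the marker of the sort, while MPP4 was higher in 4 of 4 pairs joined by the animal number in the column names. Flt3 itself was not called, and each arm mixes genotypes, so the 0 calls do not show that MPP3 and MPP4 are alike. Libraries MPP3 b and MPP4 a stood apart by B cell markers (228 and 281 RPM), whose part was not tested, and leaving out both left 0 calls.

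At 24 w.p.i. the KLS scores ran from 4.75 to 5.34 (4.20 to 5.34 at 3 w.p.i.) and the GMP scores from 3.77 to 4.25 (3.71 to 4.16 at 3 w.p.i.). Among the 6 KLS libraries, Irf7 ran from 20.7 to 41.6 RPM with a median of 28.3, and Gbp3 from 29.1 to 119 with a median of 70.3. Ifit1 ran from 7.92 to 19.0 (median 13.6), Oas2 from 5.78 to 20.6 (median 9.76) and Rsad2 from 10.2 to 64.6 (median 19.1). In the 6 GMP libraries Irf7 ran from 2.30 to 10.7 RPM (median 5.30), Ifit1 from 0 to 4.67 (median 2.71) and Gbp3 from 80.7 to 105 (median 96.2). Irf7 and Ifit1 were apart between the cell types, and Gbp3 overlapped. By the endings given above, a and b are controls, and c to f join Daxx-KO and DKO. Daxx held 976 and 807 normalised reads in KLS libraries a and b and 104 to 213 in c to f. Irf9 held 78.5, 88.8, 49.0, 65.5, 38.5 and 45.7 RPM in KLS libraries a to f, and Rsad2, named after its values were seen, held 59.9, 64.6, 20.51, 17.6, 10.2 and 14.5. Libraries a and b were the highest for both genes. Irf7 (28.7, 41.6, 27.9, 37.9, 20.7 and 26.3) and Ifit1 (11.2, 16.0, 19.0, 13.995, 7.92 and 13.1) did not separate them. Markers of other cells also set KLS libraries a and b apart. The erythroid gene Hbb-bs held 14496 and 15738 normalised reads against 176 to 794 in c to f. The neutrophil gene Ngp held 3247 and 3964 against 16903 to 36168. Their part was not tested, and how many of all genes were highest in a and b was not counted. The samples had been grouped by cell type and time only, and a contrast by ending was not tested.

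Over the 11 comparisons, 25 of the 42 ISGs were called at least once and 17 never, where 36.1% of 24542 genes tested at least once were called. Of the 35 ISGs tested in all 11, 24 were called at least once (68.6%), where 59.5% of all genes so tested were. Oas1a and Gbp3 were called in 5 each, Oas1a 4 times lower and once higher and Gbp3 likewise. Sp100 was called in 4 and Ifitm3 in 3, higher every time, and Samd9l in 4, 3 of them higher. Oasl1 was lower in all 3 of its calls. The genes never called included Irf7, Ifit1, Ifit3, Isg15, Usp18, Rsad2, Cmpk2, Bst2, Psmb8, Psmb9 and Tap1. Comparisons that share libraries are not independent in these counts.

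**Figure D5:**
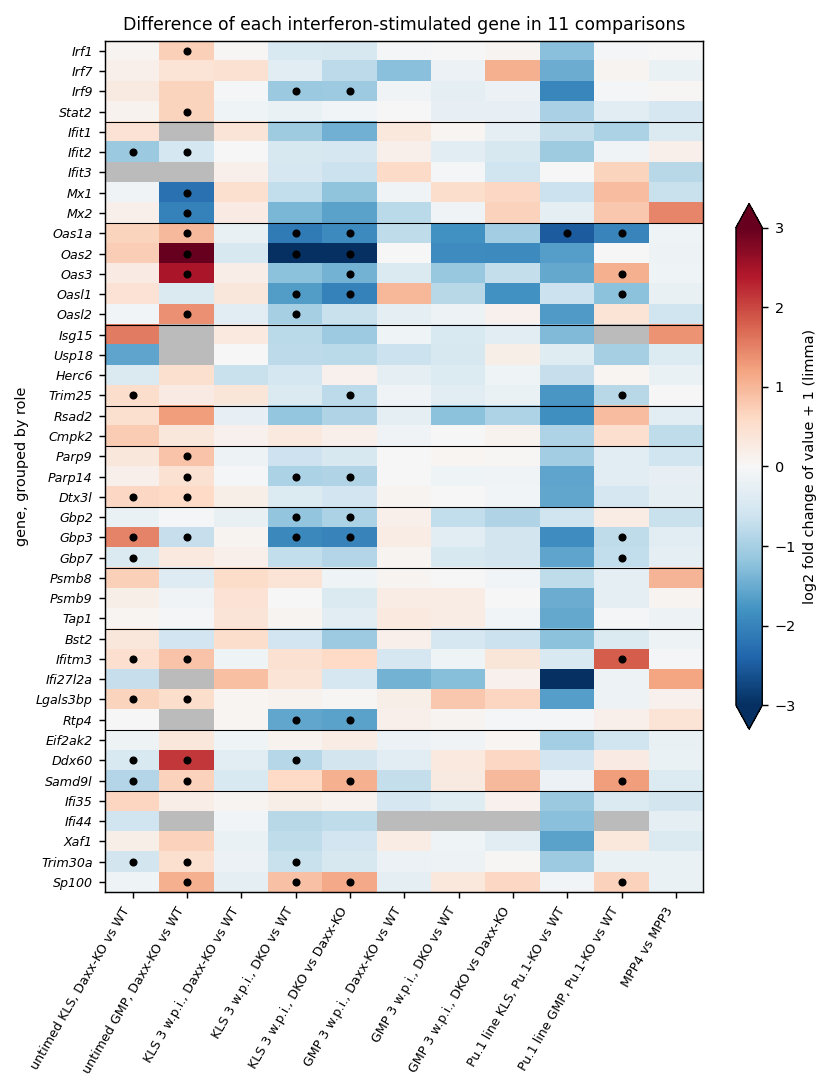
Log2 change of each ISG (rows) in each of the 11 comparisons (columns), where red is higher and blue lower in the first-named group, colours end at 3 in either direction, dots mark calls at an adjusted p under 0.05 and grey marks genes under the filter. Dots gather in the Oas and guanylate-binding rows, and the GMP columns at 3 w.p.i. hold none.

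The ISGs rose and fell together between KLS libraries. For each gene the correlation (Pearson r) of its log2 values with the mean of the other ISGs was taken over the libraries of a table. The median r of the ISGs was 0.83 over the 8 KLS libraries at 3 w.p.i., against 0.02 for all other genes, and it was 0.77 once group means had been removed. Over the 8 GMP libraries of the same animals it was 0.30 against 0.00, and 0.29 with group means removed. It was 0.65 over 6 KLS libraries and 0.39 over 6 GMP libraries at 24 w.p.i., and 0.44 over 8 MPP libraries against -0.23. Libraries of a table share depth and cell composition, so these values describe the table.

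Parp14 (0.97), Ifit1 (0.96), Oas3 (0.95), Irf1 (0.95) and Ifit2 (0.94) followed the mean most closely in KLS cells at 3 w.p.i. Sp100 (-0.68) and Samd9l (-0.45) ran against it, and at 24 w.p.i. the same genes had r of -0.74 and -0.66. With group means removed no ISG was below 0 in KLS cells at 3 w.p.i., the lowest being Usp18 at 0.04. In GMPs at 3 w.p.i. the antigen-processing genes had r below 0 (Psmb8 -0.42, Psmb9 -0.32, Tap1 -0.30), and in GMPs at 24 w.p.i. r was 0.05, 0.24 and -0.03. Among 10469 genes outside the list with a mean of at least 50, those with the highest smaller r over the KLS and GMP tables at 3 w.p.i. were Max (0.86), Klhl42 (0.85), N4bp2l1 (0.84), Tab2 (0.81), Trrap (0.81), Patz1 (0.80), Trim3 (0.79), Rnf114 (0.78), Gm12185 (0.77) and Pank1 (0.76), and 0 of these 10 were on the pathway list.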

How the data were processed

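RNA-seq values came from 10 gene tables covering 59 libraries. The authors deposited a signal per gene, whole read counts divided by size factors (DESeq2 style), per table, so tables were not tested against each other. The submitters' processing notes name CASAVA 1.8.4, cutadapt 1.13, STAR 2.5.3, DESeq2 1.16.1 and mm10. The counter, its annotation and its strand setting are not given in the sources used here, so reads of overlapping, antisense or near-identical genes (the Oas, Gbp, Ifit and Trim30 families) may be misassigned. The labels name Trizol extraction and the NuGEN Ovation SoLo kit, whereas the study's methods give that kit for transplanted mice and a stranded pico-input kit for steady-state cells. Tables of repeat elements were not used, and 1 pathway gene is counted but not reported here by name.

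Groups came from the labels. Columns that carry a group or ending but no number were lettered. Whole reads were recovered from the value steps (100.0% of values whole within 0.01) and gave depth and RPM. Genes with a mean of at least 10 over a table were tested with limma 3.58.1 (trend, R 4.3.3) on log2(value + 1), all groups of a table in one fit, two-sided, with Benjamini-Hochberg adjustment over all genes tested. Replicates are separate samples by label, so p-values measure the spread between them. The 42 genes and the marker and pathway lists were chosen with earlier results of these data known. Named genes were 10 standing ISGs (Irf7, Isg15, Ifit1, Ifit3, Stat2, Irf9, Bst2, Ifitm3, Psmb8, Oas2), up to 5 called ISGs per direction and comparison by size of change (others are listed or counted), called pathway genes, Daxx and Spi1, and the 10 genes most like the ISG mean. Other genes were named after their values were seen.

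Alternatives were edgeR 4.0.16 (quasi-likelihood, TMM) and DESeq2 1.42.0 on recovered reads, TMM rescaling, a pseudocount of 5, no filter, a replicate block and leaving out each library. The steps were tested on simulated data. MPP3 and MPP4 libraries of the same animal number correlated in their deviations from the group means at -0.44, -0.04, 0.42 and 0.55, and the block on the animal changed no call. Libraries MPP3 b and MPP4 a, which have different numbers, correlated at 0.91, so the pairing rests on the column names alone.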

Additional observations from a re-analysis of the deposited data

Results flagged for a closer look

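One GMP library at 24 w.p.i. (library b) lay above the other 5 of its table, with an ISG score of 4.25 against 3.95 for the next, and with 1470 RPM summed over the ISGs against 1322. It was checked with Dixon's test in 60 groups and measures, and 2 values stood out. Chance alone flags about 1 in 20 groups. The KLS library of the same animal had the highest score of its own table (5.34).

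Several ISGs moved in opposite directions in KLS cells and GMPs under the same contrast, with every library of a group on its side. In the untimed samples Gbp3 changed by 1.49 in KLS cells and by -0.70 in GMPs on the log2 scale (limma, adjusted p = 0.00043 and 0.018), Ddx60 by -0.45 and 2.13 (0.037 and 1.2e-05), Samd9l by -0.88 and 0.70 (0.0099 and 0.0050) and Trim30a by -0.56 and 0.47 (0.040 and 0.023). Gbp7 changed by -0.44 and 0.30 (0.026 and 0.11), so that it was called in KLS cells alone. In the Pu.1 line Oas3 changed by -1.53 in KLS cells and 1.07 in GMPs (0.10 and 0.026). Over all genes of the untimed samples, 10.6% were called higher and 12.5% lower in KLS cells, and 16.6% and 16.5% in GMPs. How many of all genes moved in opposite directions was not counted. The 2 cell types lie in tables normalised separately, and the differences between them were not tested.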

How the results depend on the processing

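The calls among the 42 ISGs rest on 2 or 3 libraries per group, and the counts moved with single libraries. Leaving out each library in turn gave 0 to 12 calls in untimed KLS cells, 9 to 21 in untimed GMPs, 2 to 20 for DKO against WT and 3 to 11 for DKO against Daxx-KO in KLS cells at 3 w.p.i., 0 to 21 in KLS cells and 1 to 16 in GMPs of the Pu.1 line, and 0 in the remaining 5 comparisons. An arm left with 1 library was assumed to vary like the other groups. Without the filter on low values untimed KLS cells had 4 calls, with more genes in the adjustment. In KLS cells of the Pu.1 line, edgeR called 5 ISGs, DESeq2 8 and limma after TMM rescaling 3, and DESeq2 called 1 in GMPs for DKO against WT. The cause was not tested. With the replicate number as a block, 19 ISGs were called for DKO against WT in KLS cells at 3 w.p.i. (without the unnumbered WT library), 13 for DKO against Daxx-KO, 0 for Daxx-KO against WT, 13 in untimed KLS cells and 17 in untimed GMPs. Same-numbered libraries correlated in their deviations at -0.01 in untimed KLS cells and -0.11 in untimed GMPs. With 2 libraries per group the deviations mirror each other, so these values cannot show whether such libraries share more than a number. The stricter ISRE core was held by 29.4% of genes in place of 44.1%. Of 464 alternative values for the 46 named log2 changes, 0 reversed and 98 lost the call, 75 of them without 1 library. Low values limited the tests in GMPs, where 7 ISGs fell under the filter in the untimed table, Isg15 and Ifi44 in the Pu.1 line and Ifi44 at 3 w.p.i.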

Other observations

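Among the 7 LT-HSC libraries, whose columns carry no genotype, the ISG scores fell into separate ranges. Libraries a to g had scores of 5.11, 5.33, 6.62, 6.33, 6.35, 5.52 and 5.0 in that order, with c, d and e above the others. Library c was among the top 3 of the table for 40 of the 42 ISGs, d for 35 and e for 36. Irf7 held 27.0, 49.96, 262, 175, 138, 39.4 and 34.9 RPM in the same order, Mx1 held 9.58, 2.64, 108, 47.9, 74.3, 13.7 and 17.1, and Ifit3 held 17.8, 11.3, 91.2, 62.2, 83.1, 9.65 and 20.9. Psmb8, at 0, 11, 7.29, 11.9, 11.9, 13.1 and 12.7, did not separate them. Daxx held 384, 237, 81.7, 69.5, 102, 198 and 196 normalised reads. These libraries were put in no group, and no test was made.

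Among the MPP libraries, Ifitm3 held 41.8, 42.5, 217 and 107 RPM in MPP3 a to d and 34.9, 66.8, 194 and 86.1 in MPP4 a to d, and Daxx held 477, 470, 249 and 161 normalised reads in MPP3 and 299, 556, 194 and 92.4 in MPP4. Ifitm3 hardly followed the mean of the other ISGs over these libraries (r of 0.10). Ddx60 ran the other way, at 1133, 624, 249 and 599 normalised reads in MPP3 and 658, 600, 395 and 393 in MPP4. Of the 42 ISGs, MPP3 c was the highest library for 14 and the lowest for 10, and MPP3 d for 12 and 0. MPP4 c was the highest for 3 and the lowest for 5, and MPP4 d for 0 and 1. These libraries were put in no group by genotype.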
